A study of Homo sapiens with 8 samples.

Results

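The sites described here are stretches of RNA where a deposited TIA1 peak and a deposited RBFOX2 peak lay on top of each other. They were chosen by position: a peak was kept when 1 or more of its bases were also covered, on its own strand, by a peak of the other protein, and kept peaks within 50 bases of each other were joined. This left 566 sites, out of 4511 obtained when all 7442 peaks of both lists were joined the same way. They held 773 of the 3215 TIA1 peaks, 24.0% of that list, and 916 of the 4227 RBFOX2 peaks, 21.7%. Because the rule set this overlap, it is a description and carries no test, and the same holds for the folds of the peaks.

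The study mapped RNA bound to each protein by eCLIP, in which ultraviolet light links protein to RNA in living cells and the linked RNA is immunoprecipitated and sequenced. All 8 libraries came from HEK293T, an established human cell line derived from embryonic kidney and expressing a viral large T antigen. One protocol calls the cells HEK293. Each protein had 2 immunoprecipitated (clip) libraries and 2 input libraries, and all cells were irradiated with 600 mJ. Clip libraries are labelled with an antibody to the HA tag and inputs with none, while another protocol text names TIA1-bound beads for every library. They call the replicates biological in one text and technical in another. A single peak list per protein joins its replicates, so values per library, read depth and the spread between replicates are unknown. The cell label could not be checked against marker genes, since peak lists hold no expression levels.

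TIA1 binds U-rich stretches of RNA. It helps the splicing machinery recognise weak 5′ splice sites, gathers in stress granules and represses translation of some mRNAs. RBFOX2 regulates splicing and recognises the element GCAUG, most often in introns beside alternative exons, where its position relative to the exon is known to set whether the exon is included or skipped. The 2 preferences differ, so the distance between the proteins' peaks within a site is the quantity of interest. Positions are 1-based hg19 coordinates. Gene names, exons, introns and sequences were not analysed here, because the reference at hand describes another build, and sites are named by position.

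Shared sites were short. Their median width was 122 bases (interquartile range 88.3 to 169), and they ranged from 5 to 497 bases. Within a site, the TIA1 span, from the first to the last base of its kept peaks, had a median of 101.5 bases (71 to 139), and the RBFOX2 span one of 102 bases (71 to 142). The spans overlapped by a median of 80 bases (48 to 116), which was 74.3% of the site. Over all sites, 77660 bases were covered, 63.5% of them by peaks of both proteins, 17.1% by TIA1 peaks alone and 19.0% by RBFOX2 peaks alone. The remaining 0.384% lay in small gaps bridged by the joining. Unshared TIA1 peaks, joined within 50 bases in their own list into 1914 sites, had a median width of 70 bases. The 2326 unshared RBFOX2 sites had one of 97 bases. The values to set beside these are the spans of 101.5 and 102 bases, since a shared site's width covers both proteins. The rule selects by overlap, so width is not independent of it, and the difference was not tested.

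At 337 of the 566 sites, or 59.5%, 1 TIA1 peak met 1 RBFOX2 peak. A single TIA1 peak was present at 76.0% of shared sites, against 80.6% of the unshared TIA1 sites. For RBFOX2 the shares were 66.6% and 75.6%. Shared sites were joined over the peaks of both lists, and unshared sites within 1 list. The rule also selects by overlap, so these shares are not independent of it, and the differences were not tested. Where the lists split a site into unequal numbers of peaks, RBFOX2 was usually the more finely split: it had more peaks than TIA1 at 138 sites and fewer at 51. The site with most kept peaks was also the longest. It ran along the plus strand of chromosome 12 from 110719135 to 110719631 and held 7 TIA1 peaks, with log2 folds over input from 3.26 to 3.69, and 11 RBFOX2 peaks, with log2 folds from 3.16 to 3.96. There the RBFOX2 peaks began 2 bases upstream of the TIA1 peaks and ended 46 bases short of them. All log2 folds and −log10 p values are the authors' own values per peak, and the fold is read as clip over input.

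The sites with the next most peaks were of different lengths. On the plus strand of chromosome 6, 7 TIA1 and 8 RBFOX2 peaks crowded into the 125 bases from 26156589 to 26156713. On the plus strand of chromosome 9, 7 TIA1 and 7 RBFOX2 peaks were spread over 272 bases, from 131451512 to 131451783. The minus strand of chromosome 19 held 6 TIA1 and 7 RBFOX2 peaks in 132 bases, from 6413938 to 6414069. A further site on chromosome 6, at 163835711 to 163836120, spread 4 TIA1 and 8 RBFOX2 peaks over 410 bases, and a plus-strand site on chromosome 10 (105726981 to 105727307) tied with it at 12 peaks, 5 of TIA1 and 7 of RBFOX2. The other long sites were a plus-strand site of 484 bases on chromosome 4 (7045070 to 7045553), a minus-strand site of 458 bases on chromosome 3 (25705799 to 25706256) and a minus-strand site of 412 bases on chromosome 14 (74180544 to 74180955). At these 3 sites no log2 fold passed 4.16.

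Offsets were measured as RBFOX2 minus TIA1 in transcript direction, so that a positive value puts RBFOX2 downstream. The proteins were not displaced in a common direction. The midpoint of the RBFOX2 span lay a median of 0 bases from that of TIA1 (95% interval of the median -1 to 1, interquartile range -10 to 11.4). RBFOX2 lay downstream at 275 sites, upstream at 281 and exactly level at 10. The 5′ edge of RBFOX2 had a median offset of -1 base (-1 to 0), with RBFOX2 starting earlier at 292 sites, later at 236 and at the same base at 38. Its 3′ edge had a median offset of 1 base (0 to 2), with RBFOX2 ending later at 299 sites, earlier at 229 and at the same base at 38. These intervals come from the order of the values over sites and describe these lists, not the spread between libraries. With overlapping peak pairs as the unit in place of sites, the median offset was 1 base at the 5′ edge and -1 at the 3′ edge, so the direction of these single-base medians turns with the unit.

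**Figure D1:**
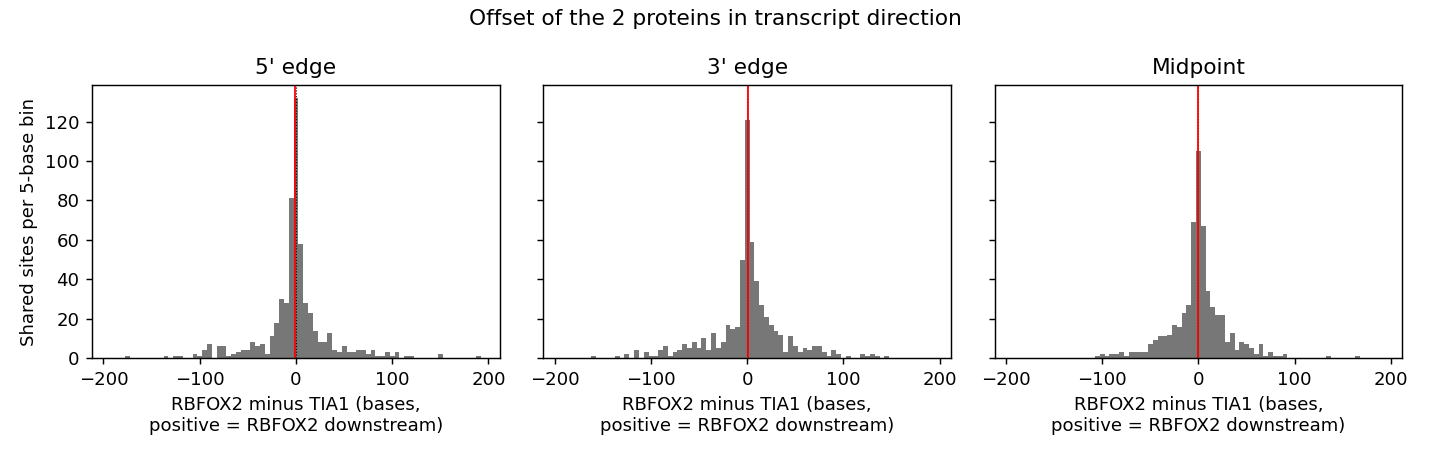
Histograms of the offset of the RBFOX2 span from the TIA1 span at 566 shared sites, for the 5′ edge, the 3′ edge and the midpoint, in 5-base bins. The x axis is in bases in transcript direction, positive where RBFOX2 is downstream, the y axis counts sites, the red line is the median (-1, 1 and 0 bases) and the dotted line marks 0. Both edge distributions are highest in the bin centred on 0, and the 3′ edge spreads more than the 5′ edge.

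By the edges of kept peaks, the proteins met more closely at the 5′ end than at the 3′ end. Unshared RBFOX2 peaks lay within 50 bases of 136 sites, 24.0%, and unshared TIA1 peaks within 50 bases of 76, 13.4%. The distances below leave these peaks out and were not measured with them. The absolute distance had a median of 8 bases at the 5′ edge and 12 at the 3′ edge. The 5′ edges lay within 5 bases of each other at 229 sites, or 40.5%, and the 3′ edges at 192, or 33.9%. Site by site, the 5′ edges were the closer pair at 304 sites and the 3′ edges at 241, with 21 ties. Both edges lay within 5 bases at 98 sites, 17.3% (95% Clopper-Pearson interval 14.3 to 20.7%, which covers the counting of sites only). At 243 sites neither did. The single most frequent displacement of the 5′ edge other than 0 was -1 base, at 33 sites, followed by -4 bases at 28, and that of the 3′ edge was 1 base, at 30 sites. A displacement of over 50 bases was found at 77 sites for the 5′ edge and 96 for the 3′ edge.

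The strands gave like values, with a median midpoint offset of -0.5 bases at the 295 plus-strand sites and 0.5 bases at the 271 minus-strand sites. The distance varied with the site's width and −log10 p. Sites were divided by width into groups of 194, 183 and 189. Among the narrowest, up to 101 bases wide, the 5′ edges lay within 5 bases at 53.6% and the 3′ edges at 49.0%. Among the widest, 28.0% and 15.3% did, and an offset cannot exceed the width of its site. Sites were also divided into 3 groups by the lower of the 2 proteins' −log10 p. Where it was highest, the 5′ edges lay within 5 bases at 51.3% of sites, against 32.8% where it was lowest. At the 3′ edge the shares were 36.0% and 31.7%. Sites with more than 1 peak of either protein had a median 5′ offset of -1 base, and single pairs one of 0.

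One protein's span often lay inside the other's. Spans were nested at 303 sites, 53.5% (49.3 to 57.7%), staggered at 260, 45.9% (41.8 to 50.1%), and identical at 3, 0.530% (0.109 to 1.54%). The inner protein was TIA1 at 186 of the nested sites and RBFOX2 at 117. Where TIA1 was inside, its median span was 87.5 bases against 119 for RBFOX2. Where RBFOX2 was inside, its median span was 80 bases against 113. By fold over input, RBFOX2 had the higher log2 fold at 110 of the 186 sites where it was outside, 59.1%, and at 44 of the 117 where it was inside, 37.6%. Over all sites it was higher at 266 of 566. The fold compared is the highest among a protein's kept peaks in the site, and a link with nesting was not tested. At 70 of the 303 nested sites the spans shared an edge to the base, so that the inner span was cut short at the other end alone. Nesting is read to the base here. Counting spans as equal where both edges lay within 5 bases gave 42.9% nested, 39.8% staggered and 17.3% equal. Sites with only 1 edge that close were still classed to the base, so the tolerance does not bear on them. Over peak pairs 44.9% were nested.

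Staggered sites pointed both ways in nearly equal number, with RBFOX2 downstream at 133 (23.5%) and upstream at 127 (22.4%). Their median overlap was 77 bases, 67.7% of the site, against 86 bases and 78.7% at nested sites. The absolute midpoint offset had a median of 21.5 bases at staggered sites and 5.5 at nested ones, a difference that follows in part from how the classes are defined.

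**Figure D2:**
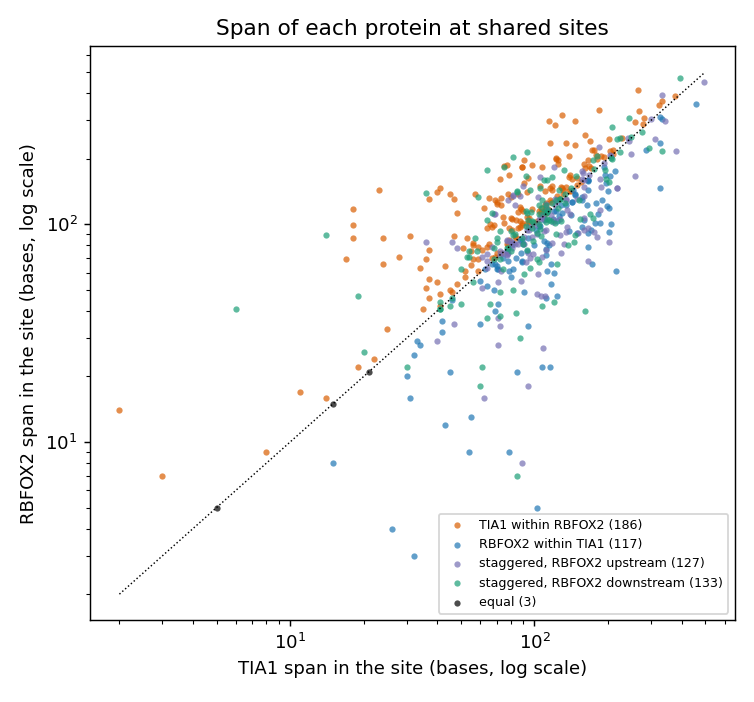
Length of the RBFOX2 span against that of the TIA1 span at each of 566 shared sites, in bases on log axes, coloured by how the spans lie. The dotted line marks equal length. Points lie along the line, with 298 sites where RBFOX2 spans more bases and 254 where TIA1 does, and points far from it have a short span of one protein beside a long span of the other.

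The 3 sites with identical spans were narrow. On the minus strand of chromosome 7, bases 26240279 to 26240299 were marked by 1 RBFOX2 peak with a log2 fold of 3.27 and by 2 abutting TIA1 peaks with 3.26 and 3.39. The −log10 p reached 49.9 for RBFOX2 and 64.0 for TIA1. The other two were on minus strands. A 15-base site on chromosome 8 (145634459 to 145634473) had log2 folds of 3.44 for TIA1 and 3.15 for RBFOX2. A 5-base site on chromosome 19 (12826549 to 12826553) had 3.25 and 3.74. The peaks of all 3 were 5 to 21 bases long, and 0 sites had identical spans when peaks under 20 bases are left out, a limit chosen after the data were seen.

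At the other extreme, peaks met by their ends. The site with RBFOX2 farthest upstream was on the minus strand of chromosome 18 from 51750526 to 51750738, with a midpoint offset of -105 bases and an overlap of 3 bases. Next came a minus-strand site on chromosome 2 (172964807 to 172965014, -99.5 bases) and a plus-strand site on chromosome 9 (36190929 to 36191126, -98 bases). RBFOX2 lay farthest downstream on the minus strand of chromosome 12 from 96793861 to 96794206, with a midpoint offset of 166.5 bases and an overlap of 13 bases. On the minus strands of chromosome 1 (108742642 to 108742955) and chromosome 3 (66551219 to 66551410) the midpoint offsets were 135 and 91.5 bases. Each of these 6 sites was a single pair of peaks. Log2 folds stayed between 3.01 and 3.71 in 5 of them, and the RBFOX2 peak on chromosome 1 had 4.51.

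The smallest overlap of spans was 2 bases. Among sites with that overlap, the 3 of highest −log10 p were on chromosome 2 (minus strand, 176046151 to 176046195), the chromosome 9 site just named, and chromosome 17 (minus strand, 63052687 to 63052857). On chromosome 2 a 6-base TIA1 peak with a −log10 p of 24.5 touched the 5′ end of a 41-base RBFOX2 peak with 10.3.

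How close the limits of the rule came to other peaks can be read from the pairs near them. Of 1065 overlapping peak pairs, 143 shared only 1 to 5 bases. For 55 TIA1 and 67 RBFOX2 peaks no overlap was larger, and their median log2 folds were 3.43 and 3.31. Just outside, 19 pairs of peaks that were not kept had 0 to 5 bases between them, 6 of which abutted. The TIA1 peaks of these pairs had a median log2 fold of 3.57 and the RBFOX2 peaks one of 3.17. The joining bridged 17 gaps, the widest of 42 bases, and the nearest pair of neighbouring sites lay 55 bases apart.

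Fold was similar in size but only loosely linked between the proteins. The highest TIA1 log2 fold of a site had a median of 3.51 (interquartile range 3.24 to 3.83), and the highest RBFOX2 log2 fold one of 3.44 (3.21 to 3.80). The median difference, RBFOX2 minus TIA1, was -0.032 (95% interval of the median -0.069 to 0.018), with TIA1 higher at 300 sites and RBFOX2 at 266. At 67.0% of sites the log2 folds lay within 0.5 of each other. Across the 566 sites the highest log2 folds had a Spearman rho of 0.20, and the −log10 p values one of 0.61. Both are descriptions over sites whose values share the same RNA in both lists, and neither list holds a log2 fold under 3. The proteins came from separate immunoprecipitations of unknown depth, so only the deposited values are compared.

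Of the 773 kept TIA1 peaks, 126 had a log2 fold of 4 or more, 16.3%, where 9.21% of the whole TIA1 list reached it. Among the 916 kept RBFOX2 peaks 127 reached it, 13.9%, where the whole RBFOX2 list had 19.3%. Counted by site, 100 sites reached it in TIA1, 90 in RBFOX2 and 26 in both, while 402 did so in neither. Ranked by the lower of the proteins' highest log2 folds, a ranking made after the values were seen, the leading site was on the plus strand of chromosome X from 114884176 to 114884344. Its highest log2 fold was 4.96 in TIA1 and 5.87 in RBFOX2, and the TIA1 span lay inside the RBFOX2 span, 6 bases from its 5′ edge and 23 bases from its 3′ edge. Other sites high in both, also chosen after their values were seen, included a minus-strand site on chromosome 2, from 47387545 to 47387834, where 8 RBFOX2 peaks reached 5.36 and 2 TIA1 peaks 4.46. RBFOX2 reached beyond TIA1 there by 6 bases at the 5′ edge and 7 at the 3′ edge. A plus-strand site on chromosome 16, from 730417 to 730613, had 4.81 in TIA1 and 4.65 in RBFOX2.

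**Figure D3:**
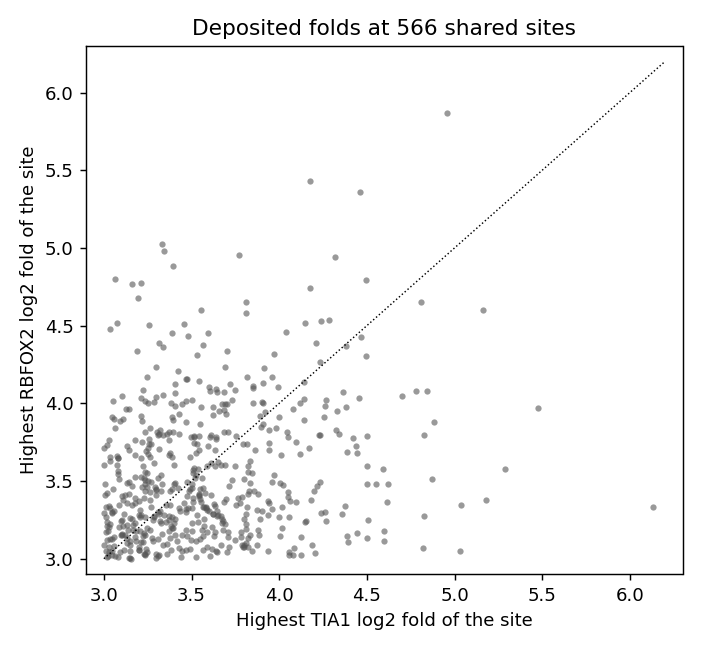
Highest deposited RBFOX2 log2 fold against highest TIA1 log2 fold at each of 566 shared sites. The dotted line marks equal values and neither list holds a value under 3. The points fill the corner under 4 on both axes, which holds 402 sites, and few sites are high in both.

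By the highest log2 fold, TIA1 led by the widest margin on the minus strand of chromosome 21, from 34143782 to 34143983. Its 5 peaks there had log2 folds from 3.15 to 6.13, against 3.03 to 3.33 in the 4 RBFOX2 peaks. The highest TIA1 peak was 14 bases long, and the 45-base RBFOX2 peak that covered it had a log2 fold of 3.26. The margin depends on the measure. By mean log2 fold weighted by peak length, RBFOX2 minus TIA1 was -0.627 at this site. At the last 2 sites below it was -1.75 (chromosome 19) and -1.74 (chromosome 10). The next site was on the minus strand of chromosome 19 (59069745 to 59069976), where TIA1 reached 5.03 and RBFOX2 3.05. A plus-strand site on chromosome 22 (24236584 to 24236769) had 5.18 and 3.38. There the proteins began 1 base apart, and TIA1 ran 84 bases further. The last 2 were on plus strands, a 15-base site on chromosome 19 (811940 to 811954) with 4.82 and 3.07, and a site on chromosome 10 (102120893 to 102121020) with 5.29 and 3.57. By the highest log2 fold, TIA1 was higher by over 1 at 33 sites.

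By the highest log2 fold, RBFOX2 was higher by over 1 at 18 sites. The widest margin was on the plus strand of chromosome 8 (144099931 to 144100004), with log2 folds of 4.80 for RBFOX2 and 3.06 for TIA1. On the minus strand of chromosome 1, from 59249066 to 59249179, 6 short RBFOX2 peaks with log2 folds from 4.27 to 5.02 lay over 1 TIA1 peak of 106 bases with 3.33. Both proteins began at the same base, and RBFOX2 ended 8 bases further. The other three were on minus strands. RBFOX2 and TIA1 had log2 folds of 4.98 and 3.35 on chromosome 4 at 102268434 to 102268547. They had 4.77 and 3.16 on chromosome 1 at 230974731 to 230974897, and 4.78 and 3.21 on chromosome 4 at 103748583 to 103748691. On the last of these, 6 RBFOX2 peaks and 2 TIA1 peaks had edges 4 bases and 1 base apart.

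The −log10 p stood at its upper limit of 400 in 23 of the 773 kept TIA1 peaks, where 2.02% of the whole list did, and these lay in 6 sites. It did so in 16 of the 916 kept RBFOX2 peaks, where 0.686% of that list did, and these lay in 3 sites. The 3 sites were among the 6. On chromosome 2, from 232573240 to 232573342, 6 TIA1 and 5 RBFOX2 peaks filled 103 bases. The log2 folds were 4.82 for TIA1 and 3.82 for RBFOX2 in their first peaks and 5.48 and 3.97 in their last. The proteins began at the same base, ended 1 base apart, and both had a cut between peaks after base 232573294 and after base 232573328. On chromosome 6, from 26156589 to 26156713, both had a cut after base 26156616 and after base 26156643. On chromosome 9, from 131451512 to 131451783, the RBFOX2 peaks began 15 bases earlier and ended 105 bases earlier than the TIA1 peaks, whose last peak alone was 106 bases long.

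The other 3 sites where TIA1 reached the limit were on chromosomes 4, 5 and 6. On the minus strand of chromosome 4, 30 bases from 83294742 to 83294771 had log2 folds of 3.18 for TIA1 and 3.23 for RBFOX2, with the RBFOX2 span 5 bases inside at either end. On the plus strand of chromosome 5 (177631538 to 177631700) both spans were 159 bases long and overlapped with a shift of 4 bases. On the minus strand of chromosome 6 (18264616 to 18264757) the highest RBFOX2 log2 fold was 3.91, and the 3′ edges fell on the same base.

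**Figure D4:**
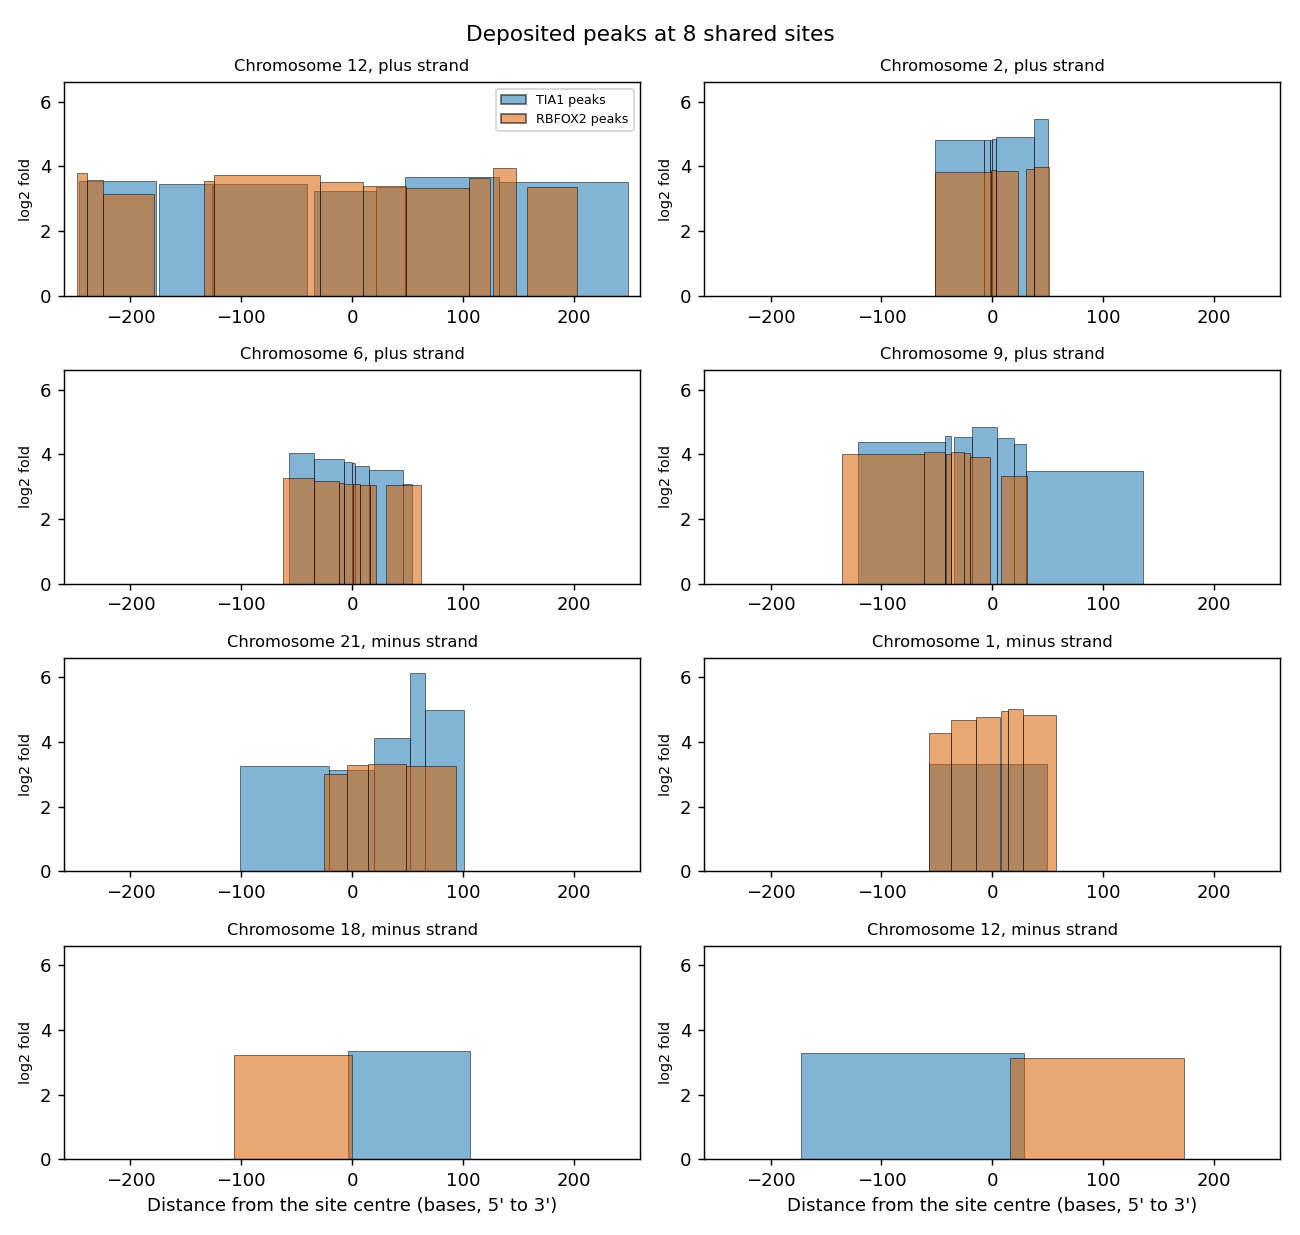
Deposited peaks at 8 shared sites, drawn to one scale. The x axis is the distance from the centre of the site in bases in transcript direction, bar width is the extent of a peak, bar height is its log2 fold, blue is TIA1, orange is RBFOX2 and brown is where they lie over each other. From the top row, the panels show the site with most peaks (chromosome 12) and the 3 sites with both lists at a −log10 p of 400 (chromosomes 2, 6 and 9). Then come the site where TIA1 leads most in highest fold (chromosome 21) and the site with the next to widest RBFOX2 lead (chromosome 1). The last are the sites with the largest midpoint offset upstream (chromosome 18) and downstream (chromosome 12).

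Cuts shared to the base, as at those sites, were a minority. Abutting peaks of a list met at 159 TIA1 and 287 RBFOX2 positions inside shared sites. At 63 sites both lists had such cuts, 106 in TIA1 and 153 in RBFOX2. Of these, 15 fell at the same base in both proteins, in 12 sites, and 40 of the TIA1 cuts had an RBFOX2 cut within 2 bases. The place of highest fold was also compared at the 96 sites with at least 2 peaks of each protein. The peaks of highest log2 fold overlapped at 56 of them. Over all 96 sites, the midpoints of the proteins' highest peaks were a median of 32 bases apart.

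Along a site, folds of the proteins could run together or apart. At 28 sites with at least 3 peaks of each, the rank correlation of log2 fold with position along the transcript was negative in both proteins at 11 and positive in both at 5. It had opposite signs at the remaining 12, and the count at which TIA1 fell while RBFOX2 rose, 6, equalled the reverse, 6. Only the sign was counted, and some correlations rest on 3 peaks or lie near 0. At the longest site, on chromosome 12, they were 0.071 for TIA1 and -0.1 for RBFOX2. On chromosome 6 at 26156589 to 26156713 every step of the 7 TIA1 peaks was downward, from a log2 fold of 4.05 to 3.09, and the RBFOX2 peaks went from 3.27 at the first peak to 3.04 at the last. On chromosome 2 at 232573240 to 232573342 the TIA1 peaks rose at every step from 4.82 to 5.48, and the RBFOX2 peaks went from 3.82 to 3.97.

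Shared sites were found on 23 chromosomes and in 428 windows of 1 Mb, of which 321 held a single site. Chromosome 1 held most, 61, followed by chromosome 3 with 38, chromosome 2 with 36 and chromosome 19 with 34. Chromosome 1 also had the most peaks, 329 of TIA1 and 444 of RBFOX2. It kept 24.9% and 20.0% of them, near the 24.0% and 21.7% of the whole lists. Among the 23 chromosomes the share of TIA1 peaks that were kept ranged from 14.8% on chromosome 21 to 37.1% on chromosome 4. For RBFOX2 it ranged from 13.9% on chromosome 11 to 31.9% on chromosome 6. The shares lay farthest apart on chromosome 19, with 17.3% of 278 TIA1 peaks and 29.1% of 203 RBFOX2 peaks kept.

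Because genes could not be named, sites were ranked by 1 Mb windows, which are not genes. The ranking was not set against the number of all peaks in a window, so it does not show where sharing was frequent. Chromosome 16 as a whole kept 16.7% of its TIA1 and 17.6% of its RBFOX2 peaks, under the 24.0% and 21.7% of the lists. Chromosome 16 from 2 to 3 Mb held 5, all on the plus strand and spread from 2009565 to 2806376. They were narrow sites of 14 to 83 bases with log2 folds no higher than 3.86 in TIA1 and 3.43 in RBFOX2. Chromosome 1 from 19 to 20 Mb also held 5, all on the minus strand from 19449491 to 19523713. In 3 of these the RBFOX2 span lay inside a longer TIA1 span and was 4 to 22 bases long. Windows with 4 sites were chromosome 15 from 81 to 82 Mb, chromosome 19 from 18 to 19 Mb and from 1 to 2 Mb, chromosome 20 from 60 to 61 Mb and chromosome 3 from 49 to 50 Mb. Another 15 windows held 3 sites each. The 3 of these with most kept peaks, 23, 19 and 17, completed the list of 10 and were chromosome 19 from 6 to 7 Mb and chromosome 6 from 114 to 115 Mb and from 18 to 19 Mb. Ranked by kept peaks in place of sites, 5 of these 10 windows remained, among them the 3 windows that kept peaks had placed on the list.

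Sites closer to each other than 10 kb on a strand, a grouping added after the data were seen, formed 43 stretches that held 95 sites, or 16.8%. Of these, 35 held 2 sites, 7 held 3 and 1 held 4. The stretch of 4 was on the plus strand of chromosome 15, 1133 bases from 81293331 to 81294463. Its first site had a midpoint offset of -4 bases and log2 folds of 4.17 for TIA1 and 3.71 for RBFOX2. The second had -5 bases, with 4.50 and 4.31. In the third RBFOX2 lay 54.5 bases upstream of TIA1, with 3.91 for TIA1 and 4.002 for RBFOX2, and in the last the offset was -1.5 bases, with 3.60 and 4.08. By midpoint RBFOX2 lay upstream at all 4, and the protein with the higher fold changed along the stretch.

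The minus strand of chromosome 19 from 6413500 to 6414683 held 3 sites with 9 TIA1 and 14 RBFOX2 peaks, the most kept peaks of any stretch. Midpoint offsets there were 31, 3.5 and -3 bases from the 5′ end onward. On the plus strand of chromosome 6 from 114178906 to 114181462, the offsets of 3 sites were -2, -21 and -11.5 bases, and the log2 folds of RBFOX2 and TIA1 were 3.60 against 3.40, 3.74 against 3.27 and 3.52 against 3.52. On the minus strand of chromosome 7 from 100282468 to 100283702, 2 of the 3 sites had edges no more than 5 bases apart. On the plus strand of chromosome 4 from 20254894 to 20255381, the middle of 3 sites had RBFOX2 71 bases upstream while its neighbours had offsets of 8 and 2.5 bases. The minus strand of chromosome 5 from 137088136 to 137088704 had high folds in both proteins, with a TIA1 log2 fold of 5.16 and an RBFOX2 log2 fold of 4.60 at its first site. Of the 43 stretches, 20 had the same protein higher by log2 fold at every site.

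**Figure D5:**
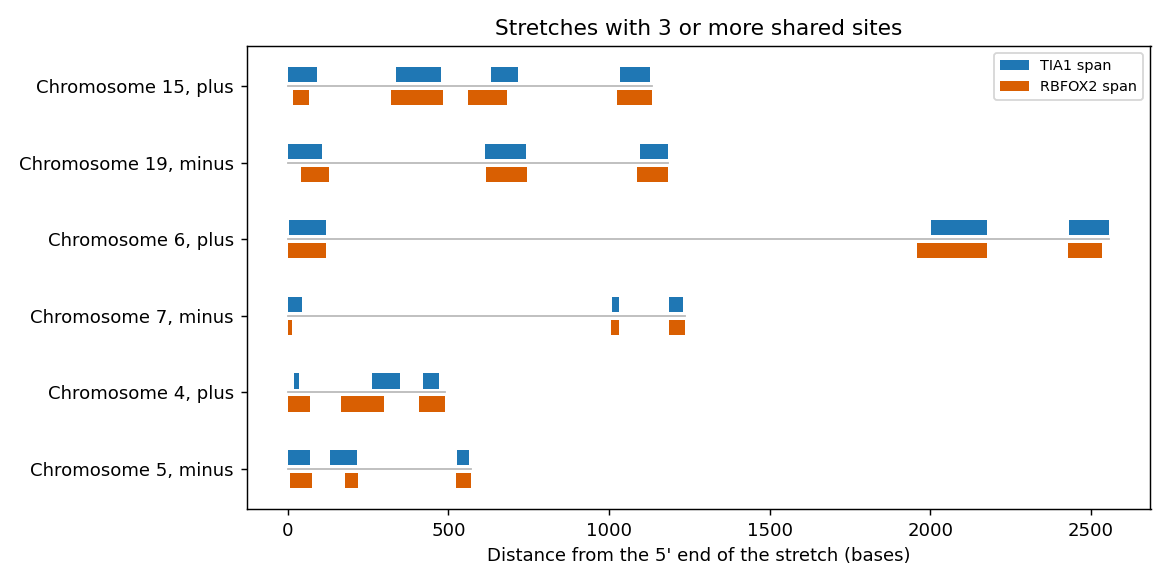
The TIA1 span (blue) and RBFOX2 span (orange) of each site in the 6 stretches under 3 kb with at least 3 shared sites, where neighbouring sites lie within 10 kb on a strand. The x axis is the distance in bases from the 5′ end of the stretch, and each row is a stretch. Spans of the proteins mostly lie over each other, and the third site on chromosome 15 and the second on chromosome 4 are shifted, with RBFOX2 54.5 and 71 bases upstream.

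Around the sites, unshared peaks of both lists were counted by the distance to the nearest shared site on the strand. Within 1 kb lay 200 of the 2442 unshared TIA1 peaks, 8.19%, and 452 of the 3311 unshared RBFOX2 peaks, 13.7%. The TIA1 peaks were divided evenly, 99 upstream and 100 downstream, with 1 inside a site. The RBFOX2 peaks were more often downstream, with 177 upstream, 270 downstream and 5 inside. Within 50 bases the RBFOX2 peaks numbered 72 upstream and 107 downstream, and the TIA1 peaks 44 and 54. The RBFOX2 list is the longer, and these counts were not tested. At 290 of the 566 sites no unshared peak of either list lay within 1 kb, and at 44 sites both lists had one.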

How the data were processed

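RNA bound by TIA1 and by RBFOX2 in HEK293T cells was measured by eCLIP in 8 libraries. Per the submitters' processing notes, UMI-tools 1.0.0, cutadapt 1.14, STAR 2.4.0i, SAMtools 1.6 and hg19 were used, with roles not stated, and the peak caller is not known here. The authors deposited 1 headerless list per protein, each made from 4 libraries. Column 4 was taken as a deposited −log10 p-value (lowest 3.01, highest 400). Column 5 was taken as a deposited log2 fold of clip over input (lowest 3.00). Both units were inferred from the values. The depth is unknown.

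Peaks sharing at least 1 base on a strand were kept and joined within 50 bases, and offsets were taken between the outer edges of each protein's kept peaks. Sites named are, by rule, the 10 windows of 1 Mb with most sites, the 5 sites with most peaks, the 5 longest, those with both lists at 400, those with equal spans, and the extremes of midpoint offset, fold difference and overlap. The members, lists and rules were chosen with earlier results of these data known. Gene lists, annotation classes and motifs were not analysed here. The overlap and offset code was tested on simulated data. Intervals are 95% Clopper-Pearson for shares and order-statistic intervals for medians. Computations ran in Python 3.11.15 with numpy 2.4.6, pandas 2.3.3 and scipy 1.17.1, and figures were drawn with matplotlib 3.10.9.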

Additional observations from a re-analysis of the deposited data

How the results depend on the processing

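Alternatives were other overlap and joining limits, limits on log2 fold and −log10 p, leaving out chromosomes M, X and Y or peaks under 20 bases, other units and edges, and a mean in place of the highest fold. The number of sites was 399 to 583, except 23 with a log2 fold of at least 4, a limit that leaves fewer peaks. Among those 23 sites the median 3′ offset was -2 bases, 39.1% were nested, 60.9% staggered and 0% equal. With overlapping peak pairs as the unit, the 5′ and 3′ medians were 1 and -1 bases, with 44.9% of pairs nested and 54.6% staggered. With spans counted as equal where both edges lay within 5 bases, 42.9% of sites were nested, 39.8% staggered and 17.3% equal. All other sites were still classed to the base. Without peaks under 20 bases 0% were equal. Of the 10 windows, 5 remained when ranked by kept peaks, and 5 held a leading stretch when stretches were ranked instead. Why these values moved was not tested. The other 74 values stayed within the 95% interval of the reported value or, for counts, within 1.5 times it. No paired analysis was possible because the lists merge their replicates. No list without a replicate could be made. Alternatives for annotation classes and motifs, which need an hg19 reference, were not run.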
